A study of Mus musculus with 9 samples.

Results

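The collagen genes of naive mouse embryonic stem cells (mESC) were compared in 3 media. The members were all protein-coding genes of the deposited matrix whose symbol names a collagen chain (*Col*, a type number, *a* and a chain number), a rule that uses no measured value. It took 44 of the 29069 genes in the matrix, of which 19018 were protein coding. By the type of collagen, 11 encode fibrillar chains, 6 encode type IV chains of the basement membrane and 27 encode other collagens. A mean above 5 normalized counts over the 9 samples was required for testing, and 35 of the 44 genes passed it, namely 10 fibrillar, 3 basement membrane and 22 other genes, among 18156 genes tested in all.

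mESC of the D3 line, one established line kept free of feeder cells, were held for 24 h in one of 3 media, with 3 samples per medium and 1 dish per sample. Ground state medium (GS, samples titled ctrl) was N2B27 medium with 1 μM of the MEK inhibitor PD0325901, 3 μM of the GSK-3 inhibitor CHIR99021 and 20 ng/mL leukemia inhibitory factor (LIF). Spontaneous differentiation medium (DM, titled rel) was DMEM with 10% fetal bovine serum and none of these agents, and mesendodermal medium (NO, titled det) was DM plus 250 μM DETA/NO, which sets nitric oxide free in the medium. DM vs GS therefore exchanges the base medium, the inhibitors, LIF and serum together, and NO vs DM adds the donor alone. Total RNA depleted of ribosomal RNA was sequenced, with an estimated 14312996 to 27080407 reads assigned to genes per sample. By the same estimate NO replicates 1 to 3 had 26110557, 14538542 and 14312996 reads. The p-values refer to the spread between dishes.

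Collagens are secreted or membrane proteins in which 3 chains wind into a triple helix built on a Gly-X-Y repeat. Prolyl hydroxylation steadies the helix in the endoplasmic reticulum, and fibrillar procollagens are trimmed outside the cell before they pack into fibrils and are cross-linked. Type IV chains form sheet-like networks in basement membranes, the first matrix an early embryo lays down, while the other types coat fibrils, form beaded filaments or anchoring fibrils, or span the plasma membrane.

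The sequence of the start region is shown for *Col4a1* and *Col4a2*, because both genes rose in both serum media and they lie head to head on chromosome 8. Their annotated first exons, on opposite strands, share 22 bases at chr8:11312805-11312826 (GRCm38, plus strand shown), a stretch in which a GC box bound by Sp1-type factors (GGGCGG) is printed in capitals.
*Col4a1* and *Col4a2*: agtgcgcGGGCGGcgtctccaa
By contrast, 71 bases separated the annotated starts of *Col4a4* and *Col4a3*, and 1308 bases those of *Col4a6* and *Col4a5*, the other head-to-head pairs of the type IV family.

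Upstream sequences were searched for 4 short motifs on both strands, the GC box (GGGCGG), the CCAAT box (CCAAT), the TATA box (TATAAA) and the E-box CACCTG, the core of the site bound by Zeb1, a repressor that the study examined in these cells. RefSeq promoters (GRCm38.p6) were at hand for 35 of the 44 collagen genes, in 38 windows of 250 bases before a start. *Col1a1*, *Col2a1*, *Col4a3*, *Col5a2*, *Col9a3*, *Col12a1*, *Col14a1*, *Col22a1* and *Col26a1* were not among them. The E-box was found in 4 of the 38 windows (10.5%), against 17.2% of all 32851 windows of that length, and its holders were *Col4a4*, *Col6a5*, *Col8a1* and *Col16a1*. The GC box was found in 22 windows (57.9%, against 32.7% of all windows) and the CCAAT box in 13 windows (34.2%, against 33.8%), and the TATA box was found in 5 windows (13.2%, against 12.4%). These are matches of letters only, and collagen windows were not matched with others for base composition.

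The upstream 250 bases are printed for 4 genes that were higher in NO than in GS and whose window holds no annotated exon, picked to show matches to the E-box, the GC box and the CCAAT box and 1 window with none of them. They are written 5′ to 3′ on the strand of the gene, and capitals mark matches to these 3 motifs on either strand. The windows are chr9:20815068-20815317 (minus strand) for *Col5a3*, chr9:105960644-105960893 (minus) for *Col6a5*, chr9:108953336-108953585 (plus) for *Col7a1* and chr4:47207762-47208011 (plus) for *Col15a1*.
*Col5a3*: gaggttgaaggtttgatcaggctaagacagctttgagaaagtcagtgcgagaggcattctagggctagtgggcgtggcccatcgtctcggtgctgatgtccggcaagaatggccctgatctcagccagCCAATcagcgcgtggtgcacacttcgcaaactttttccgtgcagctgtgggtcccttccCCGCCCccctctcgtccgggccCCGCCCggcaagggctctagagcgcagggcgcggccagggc
*Col6a5*: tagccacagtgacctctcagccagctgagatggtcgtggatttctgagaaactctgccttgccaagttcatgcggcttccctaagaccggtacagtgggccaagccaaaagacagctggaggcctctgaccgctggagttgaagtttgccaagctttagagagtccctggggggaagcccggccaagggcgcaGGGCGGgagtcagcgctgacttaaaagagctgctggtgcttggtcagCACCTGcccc
*Col7a1*: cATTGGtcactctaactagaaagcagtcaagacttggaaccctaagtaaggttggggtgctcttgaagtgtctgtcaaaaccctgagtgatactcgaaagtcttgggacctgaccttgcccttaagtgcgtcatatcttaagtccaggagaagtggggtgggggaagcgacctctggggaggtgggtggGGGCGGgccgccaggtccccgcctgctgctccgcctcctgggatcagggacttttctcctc
*Col15a1*: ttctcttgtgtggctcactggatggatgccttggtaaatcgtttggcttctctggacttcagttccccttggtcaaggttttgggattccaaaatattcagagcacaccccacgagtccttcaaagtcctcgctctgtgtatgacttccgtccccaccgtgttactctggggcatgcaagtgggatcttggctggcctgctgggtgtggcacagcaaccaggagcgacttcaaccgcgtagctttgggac
The E-box of *Col6a5* begins 10 bases before its start, and *Col5a3* carries 2 GC boxes on the other strand, 63 and 41 bases before its start, below a CCAAT box at 122 bases.

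One library stood apart and bears on all comparisons with NO. NO replicate 2 was the highest of the 9 samples for 24 of the 35 tested collagen genes, whereas this held for 28.8% of all genes tested. In 25 of the 35 the NO samples ran in the order replicate 2, replicate 3, replicate 1. The share of all genes with that order was not counted, so it cannot be called a trait of the collagens. The same library had the lowest sum over 8 markers of mESC, 56711 normalized counts against 87890 to 113464 in the other samples. It had the highest sum over 10 markers of extraembryonic endoderm, with 1372 against 137 to 490, of which *Plat* gave 612 and *Gata6* 234. Its sums were also the highest for chondrocyte markers (3168 against 330 to 1916) and endothelial markers (2610 against 485 to 1505). For fibroblast or feeder markers it was not the highest (908, with 1063 in GS replicate 1). The part of these markers in the collagen values was not tested. In bulk RNA, fewer cells of a type and less RNA per cell cannot be told apart, and values without NO replicate 2 are given beside those with it.

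Levels per kb of the longest annotated transcript placed *Col18a1* first in every medium. *Col18a1* encodes a basement membrane multiplexin whose end fragment is endostatin, and it stood at 581 normalized counts per kb in GS, 1465 in DM and 2204 in NO (means of 3 samples). The next levels per kb in GS were those of *Col5a1* (50.3), *Col4a1* (49.6), *Col11a1* (44.5) and *Col26a1* (29.5). In DM *Col18a1* was followed by *Col4a1* (184) and *Col4a2* (59.9), and in NO by *Col4a1* (295) and *Col9a3* (199). *Col1a1* and *Col1a2*, the chains of the main collagen of skin, bone and tendon, were low in these cells, at 3.04 and 3.68 normalized counts per kb in GS.

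Release from GS into DM raised 6 of the 35 tested collagen genes and lowered none. The share called higher among all genes tested was 2.94%, and the share called lower was 1.27%, a call being a limma adjusted p under 0.05 with a change of at least 2-fold. With the NO donor, 17 of the 35 genes were higher than in GS and none was lower, beside 10.1% and 1.64% of all genes tested. NO exceeded DM for 9 of the 35 genes and was below it for none, beside 6.78% and 1.77%. The median log2 fold change of the tested collagen genes was 0.25, 1.43 and 0.65 in these 3 comparisons, where the medians of all genes tested were -0.00068, -0.016 and 0.0010. Single libraries moved these counts, and with them the share called higher among all genes. In DM vs GS 3 collagens were called without GS replicate 2 or 3 or any DM replicate (1.77% to 2.00% of all genes). In NO vs GS 10 were called without GS replicate 3 (7.11%). In NO vs DM 4 were called without DM replicate 2 (4.05%), 5 without DM replicate 1 (3.99%) and 16 without NO replicate 1 (10.5%).

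The 6 genes higher in DM, which were *Col4a1*, *Col4a2*, *Col18a1*, *Col5a3*, *Col9a2* and *Col6a4*, were all higher in NO as well when each was compared with the same GS samples. *Col6a4* was the single gene called in all 3 comparisons, and 7 of the 9 genes above DM in NO were also above GS. The comparisons share samples, which favors such overlaps for any set of genes, and overlaps of calls were not counted over all genes. All 3 NO values lay above all 6 GS and DM values for 13 of the 35 genes, a pattern found in 11.3% of all genes tested. *Col6a1*, *Col6a3* and *Col12a1* passed the minimum mean through their NO values alone, with means under 5 normalized counts in both GS and DM. *Col15a1*, with means of 5.67 in GS and 4.33 in DM, also needed its NO values, and 31 genes passed on the GS and DM samples alone. *Col6a1*, *Col12a1* and *Col15a1* are among the 17 genes above GS in NO, and *Col6a1* and *Col15a1* among the 9 above DM. Their calls were favored by the filter, so the counts above are descriptions of the genes that could be tested.

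With NO replicate 2 left out, 12 of 34 tested collagen genes remained called above GS, all of them among the 17, beside 6.54% of all genes. *Col1a1*, *Col6a1*, *Col6a2*, *Col6a5* and *Col15a1* were no longer called. Against DM, 4 genes remained, *Col6a4*, *Col9a3*, *Col16a1* and *Col22a1*, beside 3.39% of all genes.

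**Figure D1:**
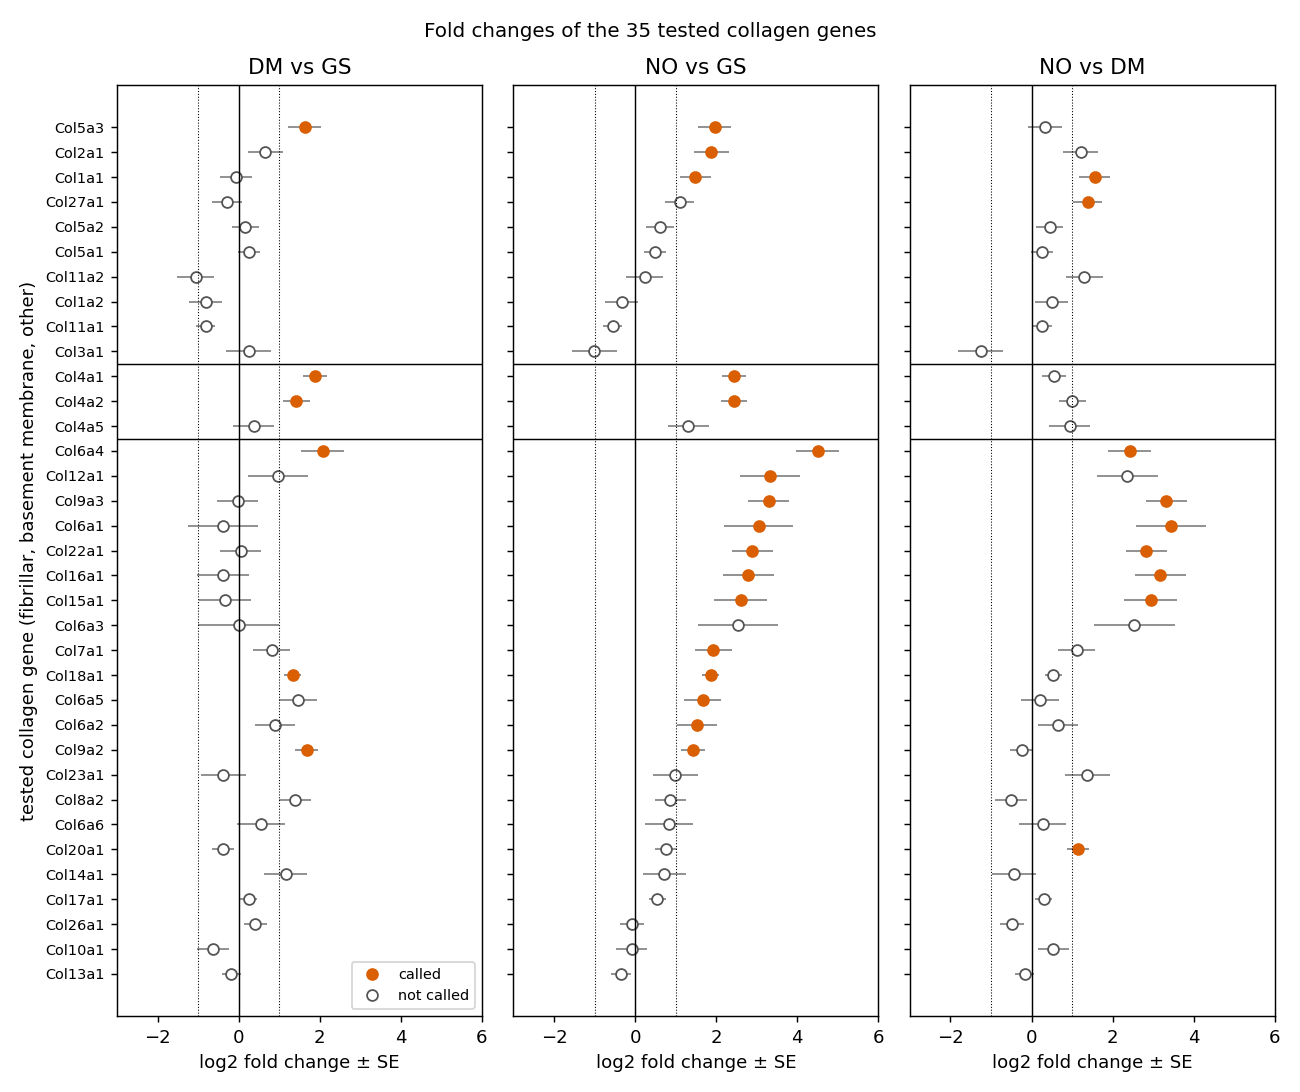
Log2 fold change of each tested collagen gene (x axis, on the log2(normalized count + 1) scale, with standard error) in DM vs GS, NO vs GS and NO vs DM, grouped from top to bottom as fibrillar, basement membrane and other collagens. Filled points are called, dotted lines mark 2-fold changes, and the 6, 17 and 9 called genes all lie to the right of 0.

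**Figure D2:**
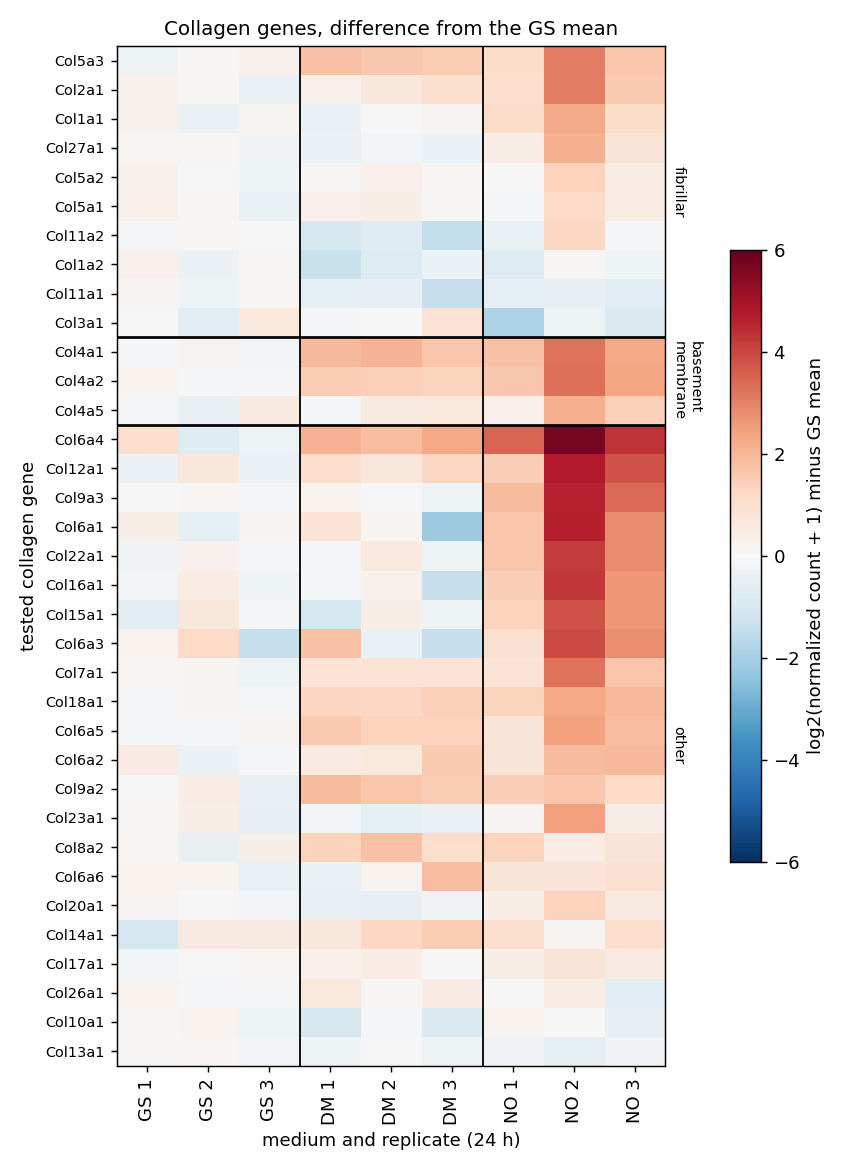
Difference of log2(normalized count + 1) from the GS mean (color) for the 35 tested collagen genes (rows, by class) in the 9 samples (columns). *Col4a1*, *Col4a2*, *Col5a3*, *Col9a2* and *Col18a1* are raised in all DM and NO samples, whereas *Col9a3*, *Col16a1* and *Col22a1* are raised in NO samples, most of all in NO replicate 2.

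Among basement membrane collagens, *Col4a1* and *Col4a2*, whose chains assemble together into the common type IV network, rose after release from GS and stood higher in NO than in GS. *Col4a1* was at 313, 381 and 291 normalized counts in GS replicates 1 to 3, at 1245, 1382 and 1026 in DM, and at 1114, 3112 and 1624 in NO. *Col4a2* was at 165, 135 and 131 in GS, 412, 389 and 358 in DM, and 443, 1443 and 732 in NO. For both genes every DM and NO value exceeded every GS value. For *Col4a1* the DM and NO values overlapped, while for *Col4a2* all NO values were above those of DM.

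The change of *Col4a1* was 3.70-fold in DM (log2 fold change 1.89 ± 0.30 SE, limma adjusted p = 0.0028) and 5.44-fold in NO (2.44 ± 0.30, adjusted p = 0.00065) relative to GS. For *Col4a2* it was 2.69-fold in DM (1.43 ± 0.33, adjusted p = 0.022) and 5.40-fold in NO (2.43 ± 0.33, adjusted p = 0.00094). Between NO and DM neither gene was called, with log2 fold changes of 0.56 for *Col4a1* (adjusted p = 0.22) and 1.01 for *Col4a2* (adjusted p = 0.059). In the absence of NO replicate 2 the log2 changes in NO vs GS were 2.04 for *Col4a1* and 1.99 for *Col4a2*, both still called. The call of *Col4a2* in DM was lost when any one of the GS or DM replicates was left out, with adjusted p from 0.051 to 0.099.

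The type IV chains of specialized basement membranes were scarce. *Col4a5* was at 8, 6 and 13 normalized counts in GS, 8, 13 and 14 in DM and 11, 42 and 25 in NO, and it was not called (NO vs GS log2 fold change 1.31, adjusted p = 0.090). *Col4a3*, *Col4a4* and *Col4a6* stayed under the minimum mean, with highest values of 5, 6 and 13.

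**Figure D3:**
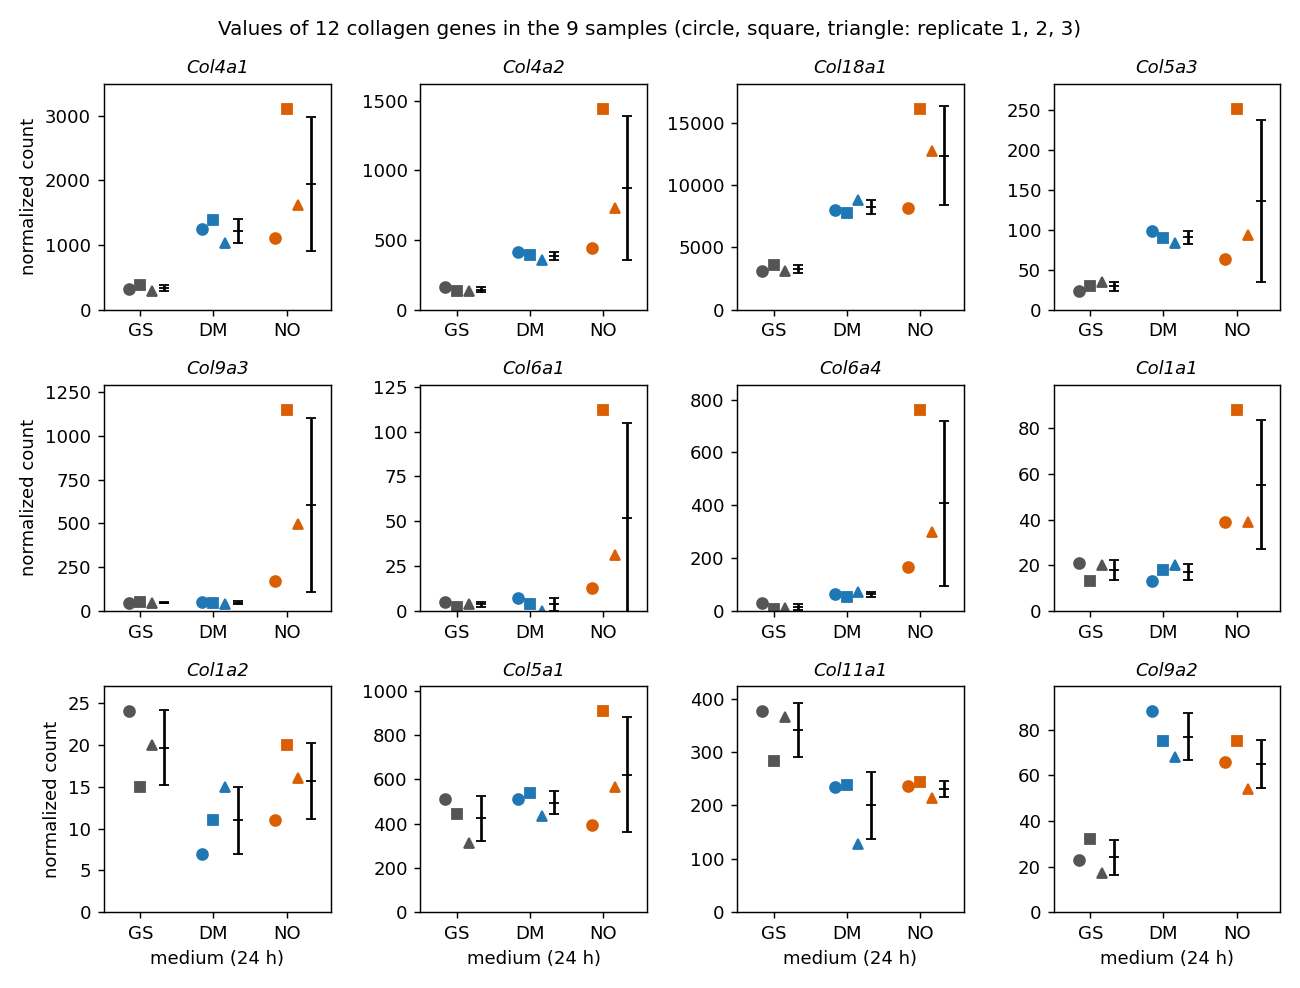
Normalized counts (y axis, from 0, own scale in each panel) of 12 collagen genes in GS, DM and NO, where symbols give the replicate and the dash with bars at the right of each medium is the mean ± SD of 3 samples (the lower bar of *Col6a1* in NO ends at the axis). NO replicate 2 (square) is the highest of the 9 samples for *Col4a1*, *Col4a2*, *Col18a1*, *Col5a3*, *Col9a3*, *Col6a1*, *Col6a4*, *Col1a1* and *Col5a1*, while a GS or DM sample is the highest for *Col1a2*, *Col11a1* and *Col9a2*.

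Among fibrillar collagens, 1 of 10 tested genes was called higher for DM against GS, 3 for NO against GS and 2 for NO against DM. The shares called higher among all genes tested were 2.94%, 10.1% and 6.78%, and 10 genes are few to set beside them. The median log2 fold changes of the fibrillar genes were 0.048, 0.56 and 0.47. *Col5a3*, a minor chain of type V collagen, was the gene raised in DM. It was at 23, 30 and 34 normalized counts in GS, 99, 90 and 83 in DM, and 63, 252 and 94 in NO. Every GS value lay below every DM and NO value, and the DM and NO values overlapped. Relative to GS, *Col5a3* rose by 1.63 ± 0.41 (SE, log2 scale) in DM (adjusted p = 0.038) and by 1.96 ± 0.41 in NO (adjusted p = 0.0076). The DM call was lost without any one GS or DM replicate or NO replicate 3 (adjusted p 0.056 to 0.13), and without NO replicate 2 the change in NO was 2.63-fold, still called.

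*Col2a1*, the chain of the main cartilage fibril, and *Col1a1* were higher in NO than in GS. *Col2a1* was at 97, 89 and 62 normalized counts in GS, 102, 131 and 161 in DM, and 163, 691 and 242 in NO. Its NO samples all exceeded the other 6, although NO replicate 1 (163) barely passed DM replicate 3 (161). The log2 fold change was 1.88 ± 0.43 (SE) against GS (adjusted p = 0.011). It became 1.28, still called, without NO replicate 2 and missed the threshold without GS replicate 3 (adjusted p = 0.053). Against DM *Col2a1* was not called (1.22, adjusted p = 0.078). *Col1a1* was at 21, 13 and 20 in GS, 13, 18 and 20 in DM, and 39, 88 and 39 in NO, so that the NO samples again stood above all others. The log2 fold changes of *Col1a1* were 1.49 ± 0.39 against GS (adjusted p = 0.021) and 1.56 ± 0.39 against DM (adjusted p = 0.024). Leaving out NO replicate 2 gave 1.10 (adjusted p = 0.070) and 1.17 (adjusted p = 0.079), and the calls were also lost without GS replicate 2 or 3 (adjusted p = 0.082 and 0.051) and without DM replicate 1 or 2 (adjusted p = 0.085 and 0.062), respectively.

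*Col1a2*, the partner of *Col1a1* in the type I trimer, was at 24, 15 and 20 normalized counts in GS, 7, 11 and 15 in DM, and 11, 20 and 16 in NO, and was not called in any comparison (NO vs GS log2 fold change -0.32, adjusted p = 0.61). *Col27a1*, a cartilage-associated fibrillar chain, was at 116, 111 and 91 in GS, 82, 95 and 83 in DM, and 140, 470 and 178 in NO. It was higher in NO than in DM (log2 fold change 1.38 ± 0.36 SE, adjusted p = 0.028) and lay at 1.10 against GS (adjusted p = 0.052). When NO replicate 2 was dropped the value against DM was 0.86, under the 2-fold limit, and the call was also lost without any one DM replicate (adjusted p 0.066 to 0.081).

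The most abundant fibrillar genes, *Col5a1* and *Col11a1*, were not called. *Col5a1*, the major chain of type V collagen that starts and thins fibrils, was at 513, 444 and 312 normalized counts in GS, 512, 536 and 435 in DM, and 392, 906 and 566 in NO, and the 3 media overlapped. *Col11a1*, a type XI chain, was at 376, 283 and 365 in GS, 235, 238 and 128 in DM, and 236, 243 and 214 in NO. Although all its DM and NO values were below all GS values, the log2 fold changes of -0.81 in DM (adjusted p = 0.069) and -0.55 in NO (adjusted p = 0.12) did not pass. The remaining fibrillar genes tested, *Col3a1*, *Col5a2* and *Col11a2*, had log2 fold changes of -1.25, 0.44 and 1.30 in NO vs DM and none was called. *Col24a1* stayed under the minimum mean, with at most 5 normalized counts.

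Of the multiplexins, which sit in or near basement membranes, *Col18a1* rose in DM and NO and *Col15a1* was called higher in NO against both other media. *Col18a1* was at 3065, 3608 and 3087 normalized counts in GS, 8017, 7751 and 8823 in DM, and 8175, 16110 and 12701 in NO. All DM and NO values were above all GS values, and NO replicate 1 fell among the DM samples. The change was 2.52-fold in DM (log2 fold change 1.33 ± 0.21 SE, adjusted p = 0.0028) and 3.66-fold in NO (1.87 ± 0.21, adjusted p = 0.00049), while NO vs DM, at 0.54, was not called (adjusted p = 0.11). The calls of *Col18a1* against GS were kept in all 18 alternative fits.

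*Col15a1* was at 3, 9 and 5 normalized counts in GS, 2, 7 and 4 in DM, and 15, 88 and 37 in NO. It passed the minimum mean only with its NO values, so that its calls were favored by the filter. The NO samples stood above all others, and the log2 fold changes were 2.61 ± 0.65 (SE) against GS (adjusted p = 0.016) and 2.94 ± 0.65 against DM (adjusted p = 0.015). After NO replicate 2 was left out they were 1.99 (adjusted p = 0.063) and 2.32 (adjusted p = 0.050), neither under 0.05. The call against GS was also lost without GS replicate 1 or 3 or NO replicate 3 (adjusted p 0.052 to 0.063) and that against DM without DM replicate 1 (adjusted p = 0.056), and without NO replicate 1 the values rose to 3.23 and 3.56.

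The fibril-associated collagens with interrupted helices (FACIT), which bind the surface of fibrils, held several of the widest differences. *Col9a3*, a chain of the type IX collagen that decorates cartilage fibrils, was at 45, 49 and 44 normalized counts in GS, 53, 47 and 37 in DM, and 172, 1148 and 497 in NO. GS and DM overlapped and every NO sample was at least 172. The log2 fold change was 3.30 ± 0.51 (SE) against GS (adjusted p = 0.0015) and 3.32 ± 0.51 against DM (adjusted p = 0.0034). Dropping NO replicate 2 gave 2.64 and 2.67, and dropping NO replicate 1 gave 4.01 and 4.03, all called.

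The other type IX genes did not share this pattern. *Col9a2* was at 23, 32 and 17 normalized counts in GS, 88, 75 and 68 in DM, and 66, 75 and 54 in NO, so that every DM and NO value lay above every GS value and DM and NO overlapped. Its log2 fold changes were 1.68 ± 0.29 (SE) in DM (adjusted p = 0.0046) and 1.43 ± 0.29 in NO (adjusted p = 0.0059) relative to GS, and -0.25 in NO vs DM (adjusted p = 0.60). *Col9a1* stayed under the minimum mean, with values of 0 to 5 in all samples.

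*Col16a1*, *Col22a1* and *Col12a1* were also higher in NO. *Col16a1* was at 13, 20 and 12 normalized counts in GS, 14, 18 and 5 in DM, and 43, 298 and 95 in NO. *Col22a1*, found where muscle joins tendon, was at 29, 40 and 32 in GS, 31, 50 and 27 in DM, and 107, 626 and 245 in NO. For both genes all NO samples lay above the other 6. The log2 fold changes of *Col16a1* were 2.79 ± 0.63 (SE) against GS (adjusted p = 0.010) and 3.18 ± 0.63 against DM (adjusted p = 0.0099), and those of *Col22a1* were 2.89 ± 0.51 (adjusted p = 0.0030) and 2.84 ± 0.51 (adjusted p = 0.0064). Without NO replicate 2 the values were 2.06 and 2.44 for *Col16a1* and 2.25 and 2.19 for *Col22a1*, and without NO replicate 1 they were 3.44 and 3.82 and 3.51 and 3.46, with all calls kept.

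*Col12a1* was at 1, 3 and 1 normalized counts in GS, 4, 3 and 5 in DM, and 6, 68 and 33 in NO. It passed the minimum mean only with its NO values, so that its call was favored by the filter. Its log2 fold change against GS was 3.33 ± 0.75 (SE, adjusted p = 0.0099), or 2.61 without NO replicate 2 and 4.26 without NO replicate 1, both called. Against DM it was 2.37 ± 0.75 (adjusted p = 0.055), and 0.048 when the replicate number was a block in the fit. *Col20a1* was at 89, 82 and 71 in GS, 59, 57 and 69 in DM, and 105, 208 and 119 in NO. It was called in NO vs DM (1.15 ± 0.27, adjusted p = 0.019), where the value without NO replicate 2 was 0.85, under the 2-fold limit, and the call was lost without DM replicate 1 or 2 (adjusted p = 0.060 and 0.063). *Col14a1* was not called (log2 fold changes of 1.16 for DM and 0.72 for NO relative to GS), and *Col19a1* stayed under the minimum mean.

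Genes for type VI collagen, which forms beaded filaments close to the cell surface, ranged from scarce to moderately abundant. *Col6a4* was at 29, 8 and 11 normalized counts in GS, 62, 52 and 72 in DM, and 165, 760 and 297 in NO, and the 3 media did not overlap. *Col6a4* rose by 2.08 ± 0.53 (SE, log2 scale) from GS to DM (adjusted p = 0.039), with 4.50 ± 0.53 in NO vs GS (adjusted p = 0.00061) and 2.42 ± 0.53 in NO vs DM (adjusted p = 0.015). With NO replicate 2 removed the comparisons with NO gave 3.91 and 1.83, both called. The DM call did not hold without GS replicate 2 or 3, any DM replicate or NO replicate 3 (adjusted p 0.062 to 0.15), and the NO vs DM call did not hold without DM replicate 2 (adjusted p = 0.053).

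*Col6a1* and *Col6a2* encode partner chains of the classical type VI trimer. *Col6a1* was at 5, 2 and 4 normalized counts in GS, 7, 4 and 0 in DM, and 13, 112 and 31 in NO, with all NO samples above the rest. It passed the minimum mean only with its NO values, so that its calls were favored by the filter. The log2 fold changes of *Col6a1* were 3.05 ± 0.86 (SE) against GS (adjusted p = 0.029) and 3.44 ± 0.86 against DM (adjusted p = 0.024). The values without NO replicate 2 were 2.24 (adjusted p = 0.11) and 2.63 (adjusted p = 0.090), and without NO replicate 1 they were 3.75 and 4.14. The call against GS was also lost without any one GS replicate or NO replicate 3 (adjusted p 0.058 to 0.097), and that against DM without DM replicate 2 or 3 or NO replicate 3 (adjusted p 0.052 to 0.068). Leaving out DM replicates 1 and 3 in turn moved the value against DM to 4.05 and 2.55.

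*Col6a2* was at 8, 4 and 5 normalized counts in GS, 8, 9 and 18 in DM, and 10, 23 and 24 in NO, and *Col6a5* was at 4, 4 and 5 in GS, 15, 13 and 13 in DM, and 8, 27 and 18 in NO. Both genes were higher in NO than in GS, with log2 fold changes of 1.54 ± 0.49 (SE) for *Col6a2* (adjusted p = 0.047) and 1.67 ± 0.46 for *Col6a5* (adjusted p = 0.027). Neither call held without NO replicate 2 (1.36, adjusted p = 0.14, and 1.30, adjusted p = 0.10). They were also lost without any one GS replicate or NO replicate 3, with adjusted p up to 0.15 for *Col6a2* and 0.086 for *Col6a5*, and that of *Col6a2* was lost without DM replicate 1 or 2 as well (adjusted p = 0.060 and 0.065). *Col6a3* and *Col6a6* were not called, with log2 fold changes of 2.54 and 0.83 in NO vs GS.

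*Col7a1*, the chain of the anchoring fibrils that tie skin epithelium to the dermis, was at 88, 93 and 67 normalized counts in GS, 145, 143 and 146 in DM, and 147, 804 and 262 in NO. The media did not overlap, although NO replicate 1 exceeded the highest DM sample by 1 count. *Col7a1* was called in NO vs GS (log2 fold change 1.93 ± 0.46 SE, adjusted p = 0.013) and not in DM vs GS (0.81, adjusted p = 0.36). The NO vs GS value without NO replicate 2 was 1.25, still called, and without GS replicate 3 its adjusted p was 0.059.

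No other collagen was called. Among the transmembrane collagens, *Col13a1* was at 45 to 74 normalized counts and *Col17a1*, a part of hemidesmosomes, at 76 to 148 over the 9 samples, with log2 fold changes of -0.35 and 0.55 in NO vs GS, while *Col23a1* reached 100 in NO replicate 2 and 11 to 23 in the other samples. *Col10a1*, known from hypertrophic cartilage, was at 9 to 22, and *Col26a1* was at 51 to 127. *Col8a2*, a short-chain network collagen, was at 11, 7 and 13 in GS, 27, 36 and 22 in DM, and 28, 14 and 18 in NO, with a log2 fold change of 1.38 in DM vs GS (adjusted p = 0.060, and 0.033 without NO replicate 2). *Col8a1*, *Col25a1* and *Col28a1* stayed under the minimum mean. *Col28a1* was listed at 0 in all GS and DM samples and at 2, 3 and 1 in NO, too few for a fold change.

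The summed level of each class was also followed in each sample. Basement membrane collagens summed to 492, 533 and 436 normalized counts in GS, 1669, 1785 and 1403 in DM, and 1581, 4619 and 2385 in NO. The other collagens summed to 3719, 4266 and 3646 in GS, 8870, 8589 and 9627 in DM, and 9383, 20853 and 14745 in NO. In both classes every DM and NO sample was above every GS sample, and NO replicate 1 fell among the DM samples. Fibrillar collagens summed to 1245, 1055 and 972 in GS, 1110, 1192 and 997 in DM, and 1101, 2833 and 1429 in NO, so that GS and DM overlapped and NO replicate 1 fell among them.

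*Col18a1* alone made up between 56.2% and 73.4% of the collagen sum in each sample. Without it, the other collagens still averaged 624 ± 56.0 (SD, n = 3) under GS, 832 ± 25.1 under DM and 2665 ± 1848 under NO. The whole collagen sum was between 0.0246% and 0.0296% of the total value in GS, between 0.0589% and 0.0610% in DM, and at 0.0660%, 0.152% and 0.0992% in NO. These sums are descriptions and were not tested.

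**Figure D4:**
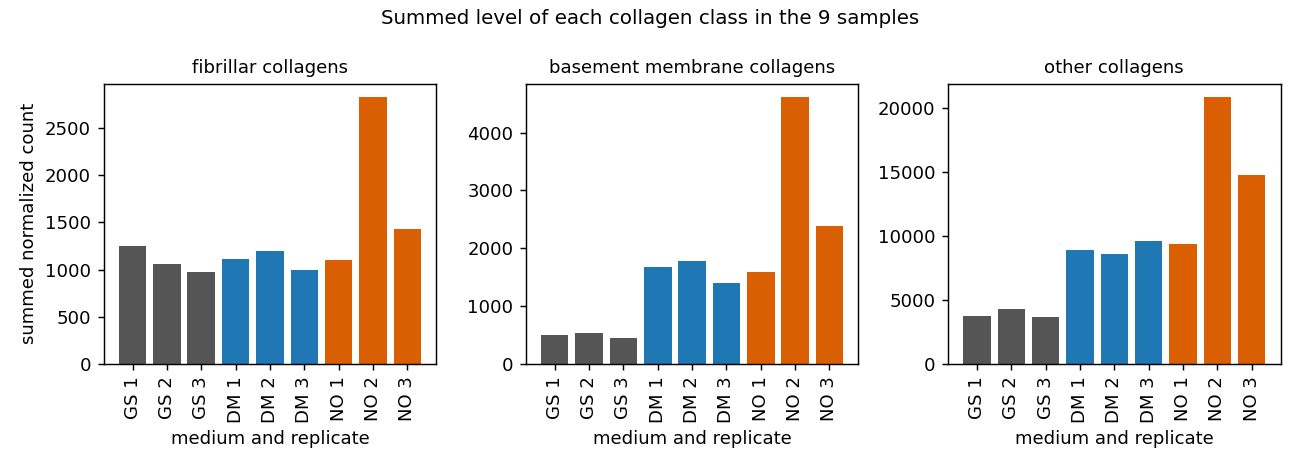
Summed normalized counts (y axis, from 0) of the 11 fibrillar, 6 basement membrane and 27 other collagen genes in each of the 9 samples. The fibrillar sum of NO replicate 1 (1101) lies among those of GS and DM, whereas basement membrane and other sums are above GS in every DM and NO sample and peak in NO replicate 2.

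The balance of partner chains was followed within samples as the log2 ratio of normalized counts in 4 pairs of types I, IV, V and VI, while the pairs *Col9a2* with *Col9a3* and *Col11a1* with *Col11a2* were not among the ratios tested. The mean log2 ratio of *Col1a1* to *Col1a2* was -0.13 ± 0.11 (SD, n = 3) under GS, 0.62 ± 0.21 under DM and 1.68 ± 0.43 under NO, and the samples of the 3 media did not overlap. NO replicate 2 had the highest ratio (2.08), and without it the NO mean was 1.49. The log2 ratio of *Col4a1* to *Col4a2* was 1.18 ± 0.29 under GS, 1.65 ± 0.16 under DM and 1.20 ± 0.12 under NO, with DM above both other media. The ratio of *Col5a1* to *Col5a2* stayed between 3.10 and 3.58 in all samples, and that of *Col6a1* to *Col6a2* was -0.53 ± 0.24 under GS, -1.81 ± 2.16 under DM and 0.98 ± 1.09 under NO, or 0.35 under NO without replicate 2. The DM mean rests on DM replicate 3, where *Col6a1* was listed at 0 (log2 ratio -4.25, set by the pseudocount), and was -0.58 without it. In exact two-sided permutation tests 3 samples against 3 cannot give a p below 0.10, and the smallest value over the 12 tests was 0.17 after Benjamini-Hochberg adjustment, so that none of these differences could pass.

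The genes that modify, fold, cut, cross-link, bind or degrade collagen were taken from 8 lists with 80 genes, of which 79 were in the matrix and 65 were tested. DM exceeded GS for 6 of the 65 and was below it for 1, NO exceeded GS for 21 and was below it for 2, and NO exceeded DM for 8 and was below it for 2. Over all genes tested the shares higher and lower were the 2.94% and 1.27%, 10.1% and 1.64%, and 6.78% and 1.77% given above. The median log2 fold changes of the 65 genes were 0.19, 0.44 and 0.12, beside -0.00068, -0.016 and 0.0010 over all genes. *Mia2*, *Itga2* and *Bgn* had means under 5 in both GS and DM and passed the minimum mean through NO alone, so that their calls were favored by the filter. Leaving these 3 aside, 18 of 62 genes were higher in NO than in GS and 7 were higher in NO than in DM.

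No chain-modifying enzyme was called higher in any comparison. *P4ha1*, a catalytic subunit of prolyl 4-hydroxylase, was at 1097, 955 and 1135 normalized counts in GS, 1284, 978 and 988 in DM, and 456, 589 and 477 in NO. All NO values were below all others, with log2 fold changes of -1.07 ± 0.16 (SE) against GS (adjusted p = 0.0013) and -1.09 ± 0.16 against DM (adjusted p = 0.0029). Both calls of *P4ha1* lie near the 2-fold limit and fell just under it without NO replicate 1 (against GS) and without DM replicate 1 (-0.96 against DM). It was the single called gene among the 11 tested of 14 in this list. *P4hb*, the other subunit and the highest gene of the list, was at 14346, 14046 and 15970 in GS, 14626, 12139 and 12352 in DM, and 10244, 8212 and 9355 in NO, a log2 fold change of -0.68 in NO vs GS (adjusted p = 0.0077) that is under 2-fold.

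In the list of folding and export, 4 of 12 genes were higher in NO than in GS, 1 of them (*Mia2*) testable through NO alone. *Serpinh1*, which encodes the collagen chaperone Hsp47, was at 670, 558 and 519 normalized counts in GS, 638, 699 and 897 in DM, and 1044, 2736 and 1970 in NO, with a log2 fold change of 1.62 ± 0.29 (SE) against GS (adjusted p = 0.0031). *Fkbp10*, a prolyl isomerase of the endoplasmic reticulum that acts on procollagen, was at 90, 87 and 54 in GS, 208, 215 and 285 in DM, and 494, 2117 and 1109 in NO. *Fkbp10* was called in all 3 comparisons (1.62, 3.79 and 2.16), with no overlap between media, although the DM vs GS call was lost without any one GS or DM replicate or NO replicate 3 (adjusted p 0.062 to 0.17). *Creb3l1*, a membrane-bound transcription factor that drives collagen secretion genes, and *Mia2*, related to a procollagen export receptor, were the other called genes, at 2.59 and 3.15 in NO vs GS. *Creb3l1* was at 1.90, still called, without NO replicate 2. *Mia2* did not exceed 3 normalized counts in GS and DM, reached 51 in NO replicate 2, without which it was under the minimum mean, lost its call without GS replicate 3 (adjusted p = 0.072) and was at 3.77 without NO replicate 3. The highest genes of the list, the general chaperones *Hspa5* and *Pdia3*, were not called. *Serpinh1* and *Fkbp10* were at 1.31 and 3.28 against GS without NO replicate 2, both called. Against DM *Serpinh1* was called at 1.27, and the call was lost without NO replicate 2 (0.96), DM replicate 1 or 2 or NO replicate 3 (adjusted p 0.054 to 0.059 for the last 3).

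Of the procollagen-cutting enzymes, *Bmp1*, the main C-proteinase, was at 50, 56 and 42 normalized counts in GS, 63, 65 and 69 in DM, and 160, 553 and 256 in NO. All NO values exceeded the rest, with log2 fold changes of 2.51 ± 0.36 (SE) against GS (adjusted p = 0.0012) and 2.09 ± 0.36 against DM (adjusted p = 0.0058), or 2.02 and 1.61 without NO replicate 2. The N-proteinase gene *Adamts14* was raised in DM (2.13, adjusted p = 0.00076) and in NO (1.95, adjusted p = 0.0011) relative to GS, and *Adamts2* was higher in NO than in GS (2.81, adjusted p = 0.0066), so that 3 of 7 tested genes were called in NO vs GS. *Adamts2* was at 2.09 without NO replicate 2 and at 3.39 without NO replicate 1, both called. *Pcolce*, an enhancer of C-proteinase and the highest gene of the list, had a log2 fold change of 0.01.

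Cross-linking genes went in both directions. *Pxdn*, the peroxidase that joins type IV collagen, was at 154, 107 and 108 normalized counts in GS, 453, 444 and 521 in DM, and 272, 299 and 263 in NO, with log2 fold changes of 1.95 ± 0.18 (SE) in DM (adjusted p = 0.00014) and 1.19 ± 0.18 in NO (adjusted p = 0.0015) relative to GS. The 3 media did not overlap, and DM was the highest. *Loxl3* was higher in NO than in GS (1.34) and DM (1.27), *Loxl4* was higher in NO than in GS (1.71), and *Loxl2* was lower in NO than in DM (-1.88, adjusted p = 0.011). The call of *Loxl4* was lost without any GS replicate, DM replicate 2, NO replicate 3 (adjusted p 0.053 to 0.12) or NO replicate 2 (1.06, adjusted p = 0.10), and that of *Loxl2* without DM replicate 1 (adjusted p = 0.051). *Lox* itself was under the minimum mean, at 0 in all GS and DM samples.

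Among the 7 tested genes of collagen breakdown, *Mmp2*, a gelatinase that cleaves type IV collagen, and *Timp3*, a matrix-bound inhibitor of such enzymes, were raised in both serum media. *Mmp2* was at 204, 145 and 144 normalized counts in GS, 337, 360 and 481 in DM, and 479, 726 and 579 in NO. *Timp3* was at 15, 14 and 17 in GS, 98, 77 and 104 in DM, and 73, 169 and 89 in NO. For both genes no GS value reached a DM or NO value. The log2 fold changes in DM and NO were 1.25 and 1.85 for *Mmp2* and 2.52 and 2.68 for *Timp3*. The highest gene of the list, *Timp1*, and the membrane collagenase *Mmp14* were not called.

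Of 8 tested collagen receptors, 4 were higher in NO than in GS, with *Itga2* testable through NO alone, namely *Ddr1* (log2 fold change 1.62, adjusted p = 0.0065), *Itga10* (1.89, adjusted p = 0.0092), *Itga2* (2.81, adjusted p = 0.042) and the endocytic receptor *Mrc2* (1.49, adjusted p = 0.018), and *Mrc2* was also higher in DM (1.81, adjusted p = 0.014). *Ddr1*, a receptor kinase bound by collagen, was at 458, 479 and 328 normalized counts in GS, 731, 764 and 1016 in DM, and 773, 2378 and 1135 in NO. *Itga2* was low, at 0 to 3 in GS and DM and at 3, 37 and 8 in NO, and its call was lost without any GS replicate or NO replicate 3 (adjusted p 0.080 to 0.13), was at 3.54 without NO replicate 1 and could not be tested without NO replicate 2. The calls of *Mrc2* were lost without GS replicate 2 or 3 (both comparisons), DM replicate 2 or 3 (DM vs GS) and NO replicate 2 (NO vs GS), with adjusted p from 0.058 to 0.067. *Itgb1*, the beta chain shared by the collagen-binding integrins and the highest gene of the list, was not called.

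Of 10 partners of type IV collagen in the basement membrane, 1 was called lower in DM vs GS, and 1 higher and 1 lower in NO vs GS. *Lama1*, the alpha chain of the early embryonic laminin, was at 8149, 7405 and 7918 normalized counts in GS, 3476, 3465 and 2732 in DM, and 4372, 2874 and 3924 in NO. All DM and NO values were below all GS values, with log2 fold changes of -1.29 ± 0.17 (SE) in DM (adjusted p = 0.00092) and -1.09 ± 0.17 in NO (adjusted p = 0.0016), the latter -0.92 without NO replicate 2 and then under 2-fold. *Lamb1* was at 1.05 in NO vs GS (adjusted p = 0.0048), or 0.80 without NO replicate 2, and the other 8 genes, with *Fn1* the highest of them, were not called. Among fibril-associated partners, 4 of 6 tested genes were higher in NO than in GS and in DM, namely *Bgn* (testable through NO alone), *Thbs1*, *Fbn1* and *Matn1*, with log2 fold changes against GS of 3.84, 3.02, 1.51 and 4.10. *Matn1*, a cartilage matrix protein, was at 98, 87 and 61 in GS, 126, 127 and 120 in DM, and 736, 2586 and 1419 in NO, or 3.65 on the log2 scale against GS without NO replicate 2. Against DM the log2 fold changes were 2.84 for *Bgn*, 2.03 for *Thbs1*, 1.66 for *Fbn1* and 3.48 for *Matn1*. The NO vs DM calls of *Bgn* and *Thbs1* were lost without any DM replicate or NO replicate 3, and that of *Thbs1* also without GS replicate 3 or NO replicate 2 (1.28), with adjusted p from 0.052 to 0.097. *Thbs1* was at 2.27 against GS without NO replicate 2 and at 3.75 and 2.76 against GS and DM without NO replicate 1, where *Bgn* was at 4.51 and 3.51. *Bgn*, with at most 3 normalized counts in GS and DM, could not be tested without NO replicate 2, and *Fbn1* lost its call against GS without GS replicate 2 or 3 (adjusted p = 0.053 and 0.054). *Sparc*, the highest gene of that list, was not called.

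**Figure D5:**
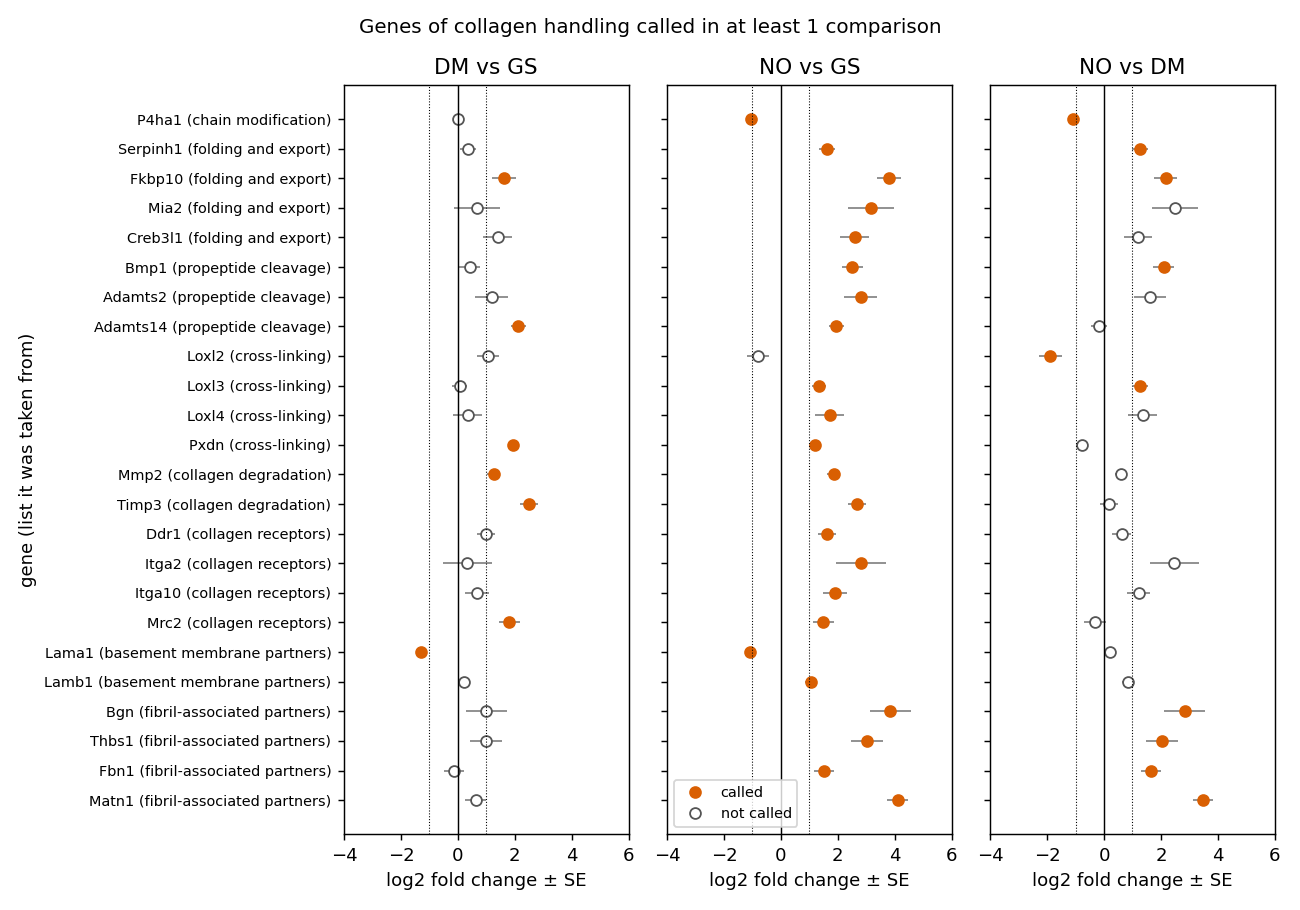
Log2 fold changes with standard errors (x axis) of the 24 genes of collagen handling that were called in at least 1 of the comparisons DM vs GS, NO vs GS and NO vs DM, ordered by list. Filled points are called and dotted lines mark 2-fold changes. *P4ha1* and *Lama1* lie to the left of 0 in NO vs GS, opposite to *Fkbp10*, *Bmp1* and *Matn1*.

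Markers of other cell types were counted in the same samples. mESC markers were abundant in every sample, with 1 of 8 (*Tfcp2l1*, log2 fold change -1.47 in DM and -1.25 in NO vs GS) called. Of 8 tested markers of extraembryonic endoderm, *Gata6* and *Plat* were higher in NO, at 20, 234 and 90 and at 45, 612 and 115 normalized counts, and *Foxa2* and *Sox7* were under the minimum mean. Without NO replicate 2 neither *Gata6* (2.06, adjusted p = 0.055) nor *Plat* (1.63, adjusted p = 0.057) was called against GS, and *Gata6* was not called against DM (2.32, adjusted p = 0.051) where *Plat* was (1.95). The calls were also lost without GS replicate 2 or 3 or NO replicate 3 (both genes, NO vs GS), GS replicate 1 (*Plat*, NO vs GS), and DM replicate 1 or 2 or NO replicate 3 (both genes, NO vs DM), with adjusted p from 0.052 to 0.087. Without NO replicate 1 the values were 3.80 and 4.06 for *Gata6* and 3.50 and 3.82 for *Plat* against GS and DM. The summed level of fibroblast or feeder markers was 663 to 1063 in GS, 630 to 744 in DM and 690 to 908 in NO. Of its 4 tested genes *Thy1* was higher in DM and NO and *Twist1* was higher in NO than in GS, while *Pdgfrb* (log2 fold changes of -0.57 for DM and -0.97 for NO against GS) and *Fbln1* (-0.70 and -0.19) were not called. The *Twist1* call was lost without NO replicate 2 (1.13, adjusted p = 0.11), any GS replicate or NO replicate 3 (adjusted p 0.056 to 0.092). The other 4 genes, *Dcn*, *Lum*, *Postn* and *Prrx1*, did not exceed 6 in any sample.

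Chondrocyte markers summed to 330 to 411 in GS, 549 to 595 in DM and 1240 to 3168 in NO. Of 6 tested genes, *Sox6* and *Matn1* were called higher in NO than in both other media and *Matn3* higher in DM and NO than in GS. *Sox5*, *Acan* and *Comp* were not called, with log2 fold changes of 1.66, 0.77 and -0.05 in NO vs GS and 0.18, 0.66 and -0.76 in DM vs GS. *Sox9* and *Hapln1* did not exceed 5. The *Matn3* call in DM was lost without GS replicate 2 or DM replicate 2 or 3 (adjusted p 0.053 to 0.068). Without *Matn1* the chondrocyte sum was 244 to 313 in GS, 423 to 470 in DM and 497 to 582 in NO. Endothelial markers summed to 485 to 615 in GS, 634 to 714 in DM and 1154 to 2610 in NO, with *Tek* at 557, 1871 and 987 in NO against 75 to 169 in the other samples, with *Cdh5* at 0 to 4. Without *Tek* the endothelial sum was 391 to 540 in GS, 482 to 545 in DM and 518 to 739 in NO, and *Vwf* and *Kdr* were not called (0.54 and 0.14 in NO vs GS). The part of these markers in the collagen values was not tested.

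Counting limits 2 groups of genes. Exons of 13 collagen genes overlap an exon of another annotated gene, among them 8 of the 19 genes called in any comparison (*Col4a1*, *Col4a2*, *Col6a4*, *Col7a1*, *Col9a3*, *Col15a1*, *Col20a1* and *Col22a1*). By the study's methods, reads that fell on several genes were left out of the counts, so reads from the shared stretches may be missing. Whether the strand was used in counting was not stated. Low genes such as *Col6a1* and *Col12a1* rest on few reads in GS and DM, where 1 read was worth 0.70 to 1.32 normalized counts.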

How the data were processed

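Total RNA-Seq was analyzed from mESC in GS, DM and NO, 3 samples each, grouped by the labels. According to the study's methods and the submitters' processing notes (FastQC 0.11.2, STAR 2.4.0a, featureCounts 1.4.5-p1, DESeq2), reads were aligned to GRCm38, counted over exons and normalized. The deposited values are a normalized score, a count divided by a size factor and rounded by the authors, here called normalized count. They are not raw counts, so no count model was fitted.

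Values were fitted as log2(value + 1) with limma 3.58.1 (R 4.3.3), all 9 samples and the 3 media in one model with a mean-variance trend, for 18156 genes with a mean above 5, with Benjamini-Hochberg adjustment over all of them. Fold changes are on that scale, which understates changes of low genes. Fits were tested on simulated data with the same relative spread in all samples. A library that stands apart, as NO replicate 2 did, was not simulated. The worth of 1 read, and from it each sample's depth, was inferred from which whole numbers rounding skips or repeats at low values. Gene models were GENCODE M21 and promoters RefSeq GRCm38.p6. Chain ratios were compared by exact permutation tests.

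All members are accounted for, with values per sample for called members and the 2 highest per kb of each class. For lists of collagen handling and of cell type markers, counts and the called or highest genes are given. Members and lists were chosen with earlier results of these data known. *Mmp1a* and *Emcn* were not analyzed here. Deviations from the group means correlated between NO and DM samples of one number (0.16, 0.17 and 0.30), and those with GS samples ranged from -0.23 to 0.05, and a replicate block was one of the alternatives. Others were filters, pseudocounts, scalings, weights and leaving out each sample.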

Additional observations from a re-analysis of the deposited data

How the results depend on the processing

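No call among the collagens was reversed, and no collagen was called lower, in any of the alternatives run. Of the 32 collagen calls in the 3 comparisons, 14 held in every alternative fit. In DM vs GS the 6 calls became 3 with precision weights, where 442 of 18156 genes were called higher against 533 in the main fit. They became 1 with a minimum log2 fold change of 2. A minimum mean of 50 left 19 collagens to test, and 11 of these were called in NO vs GS, beside 1010 of 12395 genes called higher. With a minimum log2 fold change of 2 the 17 became 9, and shares of all genes at that limit were not computed. In NO vs DM the 9 became 5 with only the 6 samples compared, where 731 of 18263 genes were called higher against 1231 of 18156 in the main fit. Leaving out 1 sample gave 3 to 8, 10 to 20 and 4 to 16 calls, respectively, while the share of all genes called higher in the same fits moved from 1.77% to 3.71%, 6.54% to 12.8% and 3.39% to 10.5%. The lowest counts came without GS replicate 2 or 3 or any DM replicate in DM vs GS (3 calls each), without GS replicate 3 in NO vs GS (10), and without DM replicate 2 or NO replicate 2 in NO vs DM (4 each), where 5 were called without DM replicate 1 and 16 without NO replicate 1. The cause of these changes was not tested, beyond fewer samples or genes in the fit.

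With the replicate number as a block, 5, 17 and 10 collagens were called, beside 462, 1804 and 1232 of all 18156 genes called higher. The labels give replicate numbers and do not say whether samples of one number belong together. In NO vs DM the block added *Col12a1* and changed no other call. Against GS the block took away *Col6a4* (DM) and *Col6a2* (NO) and added *Col27a1* (NO).

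Quantile normalization moved the median of all genes in NO vs GS to -0.11, and 25 of the 32 collagen calls held under it. Equal totals moved no summed level by more than 1 SD. Without the highest gene of the class, the sums moved to 668 and 605 (fibrillar, GS and DM), 159, 401 and 912 (basement membrane, GS, DM and NO) and 624, 832 and 2665 (other). With a pseudocount of 5 no chain ratio difference changed direction. The 9 collagens under the minimum mean were not compared between media, and the part of sequencing depth in their low values was not tested.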
